A study of Homo sapiens with 6 samples.

Results

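The 9 genes described here encode carbonic anhydrases and bicarbonate transporters, the enzymes and membrane proteins that set the pH inside and around a cell. They are CA2, CA5B, CA8, CA9, CA11, CA12, CA13, SLC4A4 and SLC4A7, taken as the rows with exactly these symbols out of 59653 genes in the table. All 9 were found and all 9 passed the filter on low counts. The cells were SK-OV3, an ovarian cancer line of human origin labelled wildtype, and their RNA was sequenced to ask how lowering the lncRNA PVT1 changes gene expression. In siPVT1, 3 libraries came from cells 48 h after transfection with 50 nM of a pool of 4 siRNAs against PVT1. In siControl, 3 libraries came from cells given a non-targeting siRNA pool at the same dose and time. Per-library values are given below in the order of replicates 1, 2 and 3. As 1 siRNA pool stands against PVT1 in 1 cell line, other effects of that pool cannot be told apart from those of lower PVT1, and the labels do not say whether replicates were separate cultures, so the p-values measure the spread between these libraries.

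Carbonic anhydrases interconvert carbon dioxide and water with bicarbonate and protons. CA9 and CA12 hold their active site outside the cell and are known in tumors, where CA9 is a textbook target of the hypoxia-inducible factor HIF-1. CA2 and CA13 work in the cytosol and CA5B in mitochondria, whereas CA8 and CA11 are carbonic anhydrase-related proteins that lack the enzyme activity. SLC4A7 (NBCn1) and SLC4A4 (NBCe1) carry sodium and bicarbonate together across the plasma membrane, and bicarbonate taken up in this way neutralizes acid in the cell.

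The library totals ranged from 28383171 to 35059576 counts. Normalized counts, in which counts were scaled to a common library size after TMM normalization, were between 3289 and 4080 for PVT1 in siControl and between 2057 and 2344 in siPVT1, with no overlap (log2 fold change -0.72, SE 0.097, where SE is the standard error). Of 6 markers of ovarian carcinoma cells (PAX8, KRT7, KRT8, KRT18, EPCAM and ERBB2) all were detected and 0 were past both thresholds described below. By the adjusted p alone, however, 3 were higher and 2 lower, beside 57.9% of all tested genes in either direction. Their log2 fold changes ran from -0.54 to 0.9995, with a median of -0.05. PAX8, a lineage factor, lay just under the fold threshold, at 2599.5, 2616 and 2646 normalized counts in siControl and 5839.9, 5255 and 4626 in siPVT1 (adjusted p = 3.33e-05, edgeR). Of the leukocyte markers reported here, CD3E was at 0, PTPRC had at most 2 counts and CD68 was not called. The endothelial markers PECAM1, VWF and CDH5 were past both thresholds as higher in siPVT1 (3 of 3, summed normalized counts from 2041 to 2067 in siControl and from 8585 to 10855 in siPVT1), as were 11.8% of all tested genes. Of the 4 fibroblast markers, COL1A1 and PDGFRB were higher (summed list from 195 to 207 and from 793 to 819), and COL3A1 and DCN had at most 3 counts. The part of these markers in the results below was not tested. In bulk RNA, fewer cells with a transcript and less transcript per cell cannot be told apart. The siPVT1 libraries were less alike than the siControl libraries, and among all genes past both thresholds, siPVT1 replicate 3 lay nearest to the siControl mean in 59.5%. The same library lay nearest for 7 of the 9 members, with CA2 and CA5B as the exceptions.

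Of the 9 members, CA8, CA9, CA11 and SLC4A7 were higher and CA13 was lower past both thresholds, a Benjamini-Hochberg adjusted p-value under 0.05 over all 19008 genes tested and a log2 fold change of at least 1 in size, in edgeR's quasi-likelihood test. The same thresholds were passed by 21.5% of all tested genes, 11.8% as higher and 9.64% as lower. By the adjusted p alone 6 members were higher and 2 lower, all but CA2, beside 57.9% of all tested genes. Among the members the median log2 fold change was 0.40, against 0.001 for all tested genes. This median is the value of CA5B, which is uncertain because of its pseudogene, as described below. CA9 passed the filter through the siPVT1 libraries alone, so it had to differ to be tested. The groups did not overlap for 7 members, 5 higher and 2 lower in siPVT1, and for 65.6% of all tested genes, 33.2% higher and 32.3% lower. An exact two-sided permutation test of 3 libraries against 3 gave p = 0.1 for each of these 7 genes, the smallest p that it allows, and p = 0.2 for CA2 and CA11. Only CA9 in siControl stayed at or below 3 counts in each library of a group, a limit used here as the floor.

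**Figure D1:**
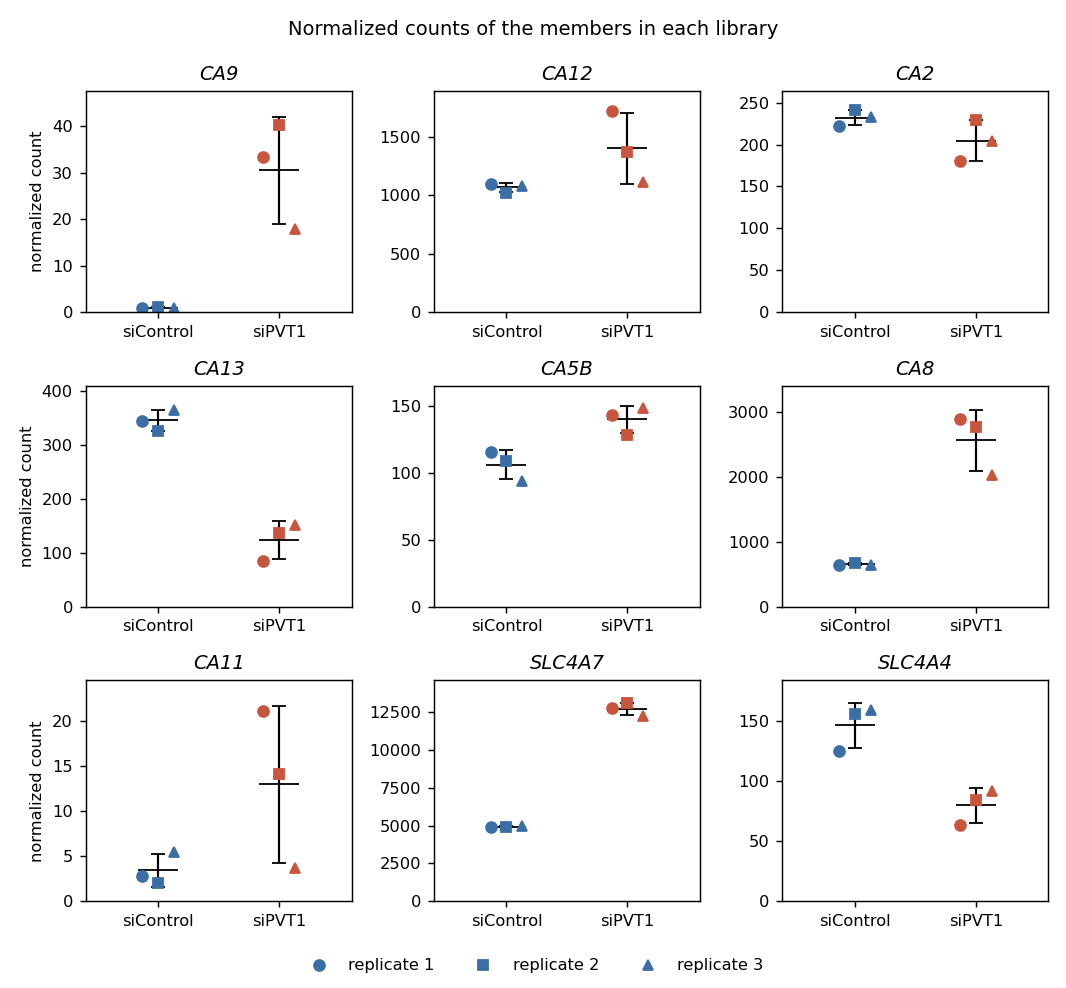
Normalized counts (vertical axes, from 0) of each member in the 3 siControl (blue) and 3 siPVT1 (red) libraries, with a symbol for each replicate, a line at the mean and bars of 1 SD. CA8, CA9 and SLC4A7 are higher and CA13 and SLC4A4 lower in every siPVT1 library, whereas the groups overlap for CA2 and CA11.

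Windows around annotated starts are shown for CA9 and SLC4A7, which were past both thresholds as higher, and for CA12 as the other extracellular enzyme. The SLC4A7 window is the first of a pair, and the other one held no match. Each window holds 250 bases before and 50 after the start of transcription, 5′ to 3′ on the gene's strand, from RefSeq on GRCh38.p14, and capitals mark the letters ACGTG or GCGTG on either strand, the core of a hypoxia response element.
CA9, plus strand, chr9:35673678-35673977: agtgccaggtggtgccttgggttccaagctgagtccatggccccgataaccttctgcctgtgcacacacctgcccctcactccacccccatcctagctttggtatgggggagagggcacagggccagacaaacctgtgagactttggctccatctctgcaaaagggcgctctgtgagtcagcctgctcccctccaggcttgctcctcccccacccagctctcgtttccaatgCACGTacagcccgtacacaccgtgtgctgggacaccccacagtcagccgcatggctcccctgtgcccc
SLC4A7, minus strand, chr3:27484335-27484634: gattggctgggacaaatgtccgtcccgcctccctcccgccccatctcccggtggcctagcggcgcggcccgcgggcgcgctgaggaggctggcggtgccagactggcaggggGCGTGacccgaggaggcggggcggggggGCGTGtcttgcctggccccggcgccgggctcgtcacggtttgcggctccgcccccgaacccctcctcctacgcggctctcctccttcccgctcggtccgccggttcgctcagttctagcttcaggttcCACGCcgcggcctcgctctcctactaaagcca
CA12, minus strand, chr15:63381797-63382096: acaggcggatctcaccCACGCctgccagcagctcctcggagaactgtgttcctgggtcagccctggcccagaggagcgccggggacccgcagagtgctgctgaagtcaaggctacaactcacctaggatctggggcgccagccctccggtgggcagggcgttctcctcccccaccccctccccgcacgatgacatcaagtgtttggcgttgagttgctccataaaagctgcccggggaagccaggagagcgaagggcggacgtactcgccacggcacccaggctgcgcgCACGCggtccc
CA9 held 1 match, an ACGTG on the opposite strand that begins 18 bases before the start. SLC4A7 held 3 matches to GCGTG and CA12 held 2, 1 of them before and 1 after the start. Of 35116 windows of this length, 21.4% hold ACGTG, 36.5% GCGTG, 48.4% either and 10.1% at least 3 matches, so that these letters are common among promoters. CA5B, which was not past both thresholds, had 7 matches, and of 5 SLC4A4 windows 2 had 1 match each. The table matched 5 of the 9 symbols, and CA2, CA8, CA11 and CA13 were not matched. A match is not a site at which a factor was measured.

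CA9, the extracellular enzyme induced by hypoxia, went from near absence to a low level. It had 1 count in each siControl library and 30, 37 and 19 counts in siPVT1. Each siPVT1 library lay above every siControl library, and replicate 3 was the lowest of the siPVT1 libraries. In total 3 counts stood against 86, a ratio of 31.1 between the groups with an exact 95% interval from 10.3 to 154 that covers counting error only. The log2 fold change fitted by edgeR was 4.81 (SE 0.53, adjusted p = 0.000121), a value that depends on the prior count and is no bound. The annotated span of CA9 (ENSG00000107159, chr9:35673928-35681159, plus strand, GRCh38) overlaps that of ARHGEF39, a gene on the minus strand with 101 to 362 counts per library. The strand setting of the counting was not given in the sources used here, and reads of the shared stretch could not be told apart without it.

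CA12, the other extracellular enzyme, was the most abundant carbonic anhydrase per length in siControl. Its normalized counts were 1101, 1023 and 1081 in siControl and 1719, 1369.8 and 1118 in siPVT1. All 3 siPVT1 libraries were above all siControl libraries, but replicate 3 only just. Its coefficient of variation went from 3.80% among siControl libraries to 21.5% among siPVT1 libraries. Its fold change on the log2 scale was 0.39 (95% interval 0.07 to 0.72, adjusted p = 0.0421, edgeR quasi-likelihood) and did not reach the fold threshold. Without siPVT1 replicate 1 it was 0.20, and the adjusted p was between 0.0901 and 0.124 without any 1 of the siControl libraries or siPVT1 replicates 1 or 2. Without siPVT1 replicate 3 it was 0.52 (adjusted p = 0.000498 from the same test). CA12 (ENSG00000074410) lies at chr15:63321378-63381846 on the minus strand and overlaps no other annotated gene.

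CA13 and CA2, the cytosolic enzymes, lie in a single stretch of chromosome 8, at chr8:85220587-85284073 (ENSG00000185015) and chr8:85463968-85481493 (ENSG00000104267), both on the plus strand of GRCh38. CA13 fell from 344, 325 and 365 normalized counts in siControl to 84.4, 137 and 151 in siPVT1. The lowest siControl library had more than any siPVT1 library, and the siPVT1 libraries spread widely, with a coefficient of variation of 28.3%. This was a change of -1.47 on the log2 scale (SE 0.19, adjusted p = 0.000279, edgeR quasi-likelihood), or 2.76-fold lower. It lay between -1.65 and -1.27 with 1 library left out, and a test against a 2-fold change gave an adjusted p = 0.0457.

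CA2, the classical cytosolic enzyme of red cells and secretory epithelia, had 222, 241 and 233 normalized counts in siControl and 179.9, 229 and 204 in siPVT1. The groups overlapped through siPVT1 replicate 2. The log2 fold change was -0.18 with a 95% interval from -0.44 to 0.08 (adjusted p = 0.199, edgeR quasi-likelihood), so that a fall of over 0.44 or a rise of over 0.08 lies outside this interval. The difference between CA13 and CA2 was not tested as such. CA2 overlaps CA3-AS1 on the opposite strand, which had 3 to 7 counts per library.

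CA5B, the mitochondrial enzyme, had 116, 109 and 94.0 normalized counts in siControl and 143, 129 and 148 in siPVT1. The siPVT1 libraries were all above the siControl libraries by a margin similar to the spread within a group. The log2 fold change was 0.40 (95% interval 0.10 to 0.70, adjusted p = 0.0291, edgeR quasi-likelihood), under the fold threshold, and the adjusted p lay between 0.0445 and 0.115 with 1 library left out, staying under 0.05 without siControl replicate 1 or siPVT1 replicate 2. CA5B (ENSG00000169239, chrX:15688830-15788411, plus strand) overlaps its own pseudogene CA5BP1 on the same strand, and reads of near-identical sequence between them are divided by estimation. CA5BP1 fell from 269, 259.95 and 249 normalized counts in siControl to 104, 93.7 and 127 in siPVT1 (a log2 change of -1.25 with an SE of 0.13, adjusted p = 8.62e-05 by edgeR). The sum of the pair had a mean of 365 ± 21.2 in siControl and of 248.5 ± 26.6 in siPVT1 (SD, n = 3 each), and the share of CA5B in it was 29.0% ± 1.42 and 56.5% ± 2.37 (SD, n = 3 each). The value of CA5B by itself is therefore uncertain.

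CA8, a carbonic anhydrase-related protein that binds the IP3 receptor in neurons, had the largest difference among members with ample counts. Normalized counts were 640.1, 673 and 650.4 in siControl and 2898, 2779.9 and 2031 in siPVT1. Even the lowest siPVT1 library held over 3 times the highest siControl library, and replicate 3 again lay nearest to siControl. CA8 rose by 1.97 on the log2 scale (SE 0.13, adjusted p = 9.86e-06, edgeR quasi-likelihood), 3.92-fold with a 95% interval from 3.18 to 4.84. With 1 library left out the log2 fold change was between 1.86 and 2.10. CA8 (ENSG00000178538, chr8:60185412-60281400, minus strand) overlaps no other annotated gene.

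CA11, the other related protein, was close to the floor, with 3, 2 and 6 counts in siControl and 19, 13 and 4 in siPVT1. The groups overlapped, since siPVT1 replicate 3 had fewer counts than siControl replicate 3. In total 11 counts stood against 36, a ratio of 3.55 with an exact 95% interval from 1.77 to 7.73 for counting error. In the fit this came to 1.83 on the log2 scale (SE 0.68, adjusted p = 0.0485, edgeR quasi-likelihood), just past the threshold, and the call was lost with DESeq2 (adjusted p = 0.0601). With a filter that needs 2 libraries, chosen after the data were seen, the call stayed only without siPVT1 replicate 3 (2.28 on the log2 scale). Without any 1 of the other 5 libraries the fold change was 1.28 to 2.32 on that scale and the adjusted p, from edgeR, 0.0594 to 0.176. CA11 (ENSG00000063180) lies at chr19:48637946-48646187 on the minus strand and overlaps SEC1P on the opposite strand, which had 0 counts in every library.

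**Figure D2:**
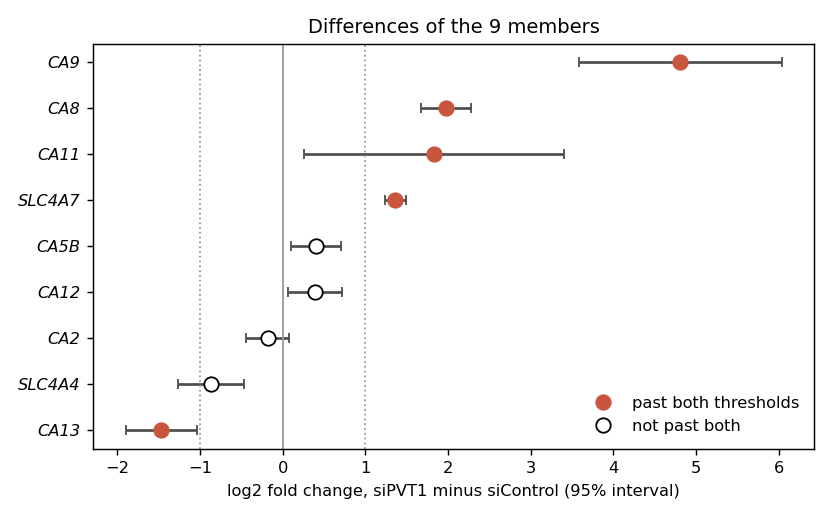
Log2 fold change of each member, siPVT1 minus siControl (horizontal axis), with 95% intervals from edgeR's quasi-likelihood fit, filled where past both thresholds, and dotted lines at the fold threshold of 1. The values run from -1.47 for CA13 to 4.81 for CA9, whose interval is wide, as is that of CA11, whereas that of SLC4A7 is the narrowest.

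SLC4A7 and SLC4A4 both bring bicarbonate into the cell together with sodium, the former without net charge and the latter with it, and their differences had opposite signs. SLC4A7 had 4893, 4911 and 4985 normalized counts in siControl and 12733, 13066 and 12247 in siPVT1. Replicates were close in both groups, the coefficients of variation being 0.988% and 3.25%. SLC4A7 rose by 1.36 on the log2 scale (SE 0.054, adjusted p = 1.19e-06, edgeR quasi-likelihood), 2.57-fold, and by p-value ranked 90 of 19008 genes. With 1 library left out it stayed between 1.33 and 1.37. The gene (ENSG00000033867) lies at chr3:27372721-27484420 on the minus strand.

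SLC4A4 had 124, 155 and 158 normalized counts in siControl and 63.3, 83.9 and 91.8 in siPVT1. No siPVT1 library reached the lowest siControl library. On the log2 scale the difference was -0.87 (95% interval -1.27 to -0.47, adjusted p = 0.00299, edgeR quasi-likelihood), which missed the fold threshold in size, and it was -1.0 and past both thresholds without siPVT1 replicate 3. The gene (ENSG00000080493) lies at chr4:71062667-71572087 on the plus strand. The gap between the transporters widened, as in RPKM, the counts per kilobase of transcript at a common library size, SLC4A7 had 19.7 ± 0.194 and SLC4A4 0.61 ± 0.0784 in siControl (SD, n = 3 each), and 50.6 ± 1.64 and 0.333 ± 0.0615 in siPVT1 (SD, n = 3 each).

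Levels of different genes were compared per length, as RPKM, with the length of the transcript that GENCODE v44 marks as MANE Select. In siControl the order of the means was SLC4A7 (19.7), CA12 (5.64), CA2 (4.79), CA8 (3.68), CA13 (2.86), SLC4A4 (0.61), CA5B (0.50), CA11 (0.065) and CA9 (0.02). Only SLC4A4 and CA5B overlapped among neighbours in this order. In siPVT1 the order was SLC4A7 (50.6), CA8 (14.4), CA12 (7.41), CA2 (4.21), CA13 (1.03), CA5B (0.659), CA9 (0.635), SLC4A4 (0.333) and CA11 (0.244). CA5B overlapped CA9, CA9 overlapped SLC4A4 and SLC4A4 overlapped CA11, whereas the first 5 genes kept apart from each other in every library. CA8 went from the fourth to the second place and CA9 from the ninth to the seventh.

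The make-up of the carbonic anhydrase transcripts shifted with this. CA8 made up 21.0% ± 0.648 of the summed level of the 7 carbonic anhydrase members in siControl and 50.2% ± 2.18 in siPVT1 (SD, n = 3 each). CA13 went from 16.3% ± 0.772 to 3.73% ± 1.51 and CA9 from 0.114% ± 0.0062 to 2.17% ± 0.606 (SD, n = 3 each). The summed level itself was 17.5 ± 0.185 RPKM in siControl and 28.6 ± 4.11 in siPVT1 (SD, n = 3 each), so a share can fall without a fall of the gene. The share of CA12 went from 32.2% ± 1.14 to 25.8% ± 2.67 (SD, n = 3 each) though its own level was higher in siPVT1. Summed per length, the extracellular enzymes CA9 and CA12 had 5.66 ± 0.213 RPKM in siControl and 8.04 ± 1.75 in siPVT1, most of it CA12, and the cytosolic enzymes CA2 and CA13 had 7.64 ± 0.2 and 5.24 ± 0.748 (SD, n = 3 each). In both sums the groups did not overlap, the former being higher and the latter lower in siPVT1. Among single tested genes, the groups did not overlap for 65.6%. The extracellular sum of siPVT1 replicate 3 was 6.28 RPKM, against 5.83 in siControl replicate 1. Of the cytosolic pair, CA13 went from 2.9 to 1.0 RPKM and CA2, whose groups overlapped, from 4.8 to 4.2. The 5 genes of active enzymes together had 13.8, 13.6 and 14.0 RPKM in siControl and 14.9, 14.5 and 12.4 in siPVT1. Here the groups overlapped, with a ratio of the means of 1.01, which was 0.911 with scaling by the total count and 1.09 from counts without length. RNA levels say nothing of enzyme activity, and the counts do not separate the isoforms of a gene.

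**Figure D3:**
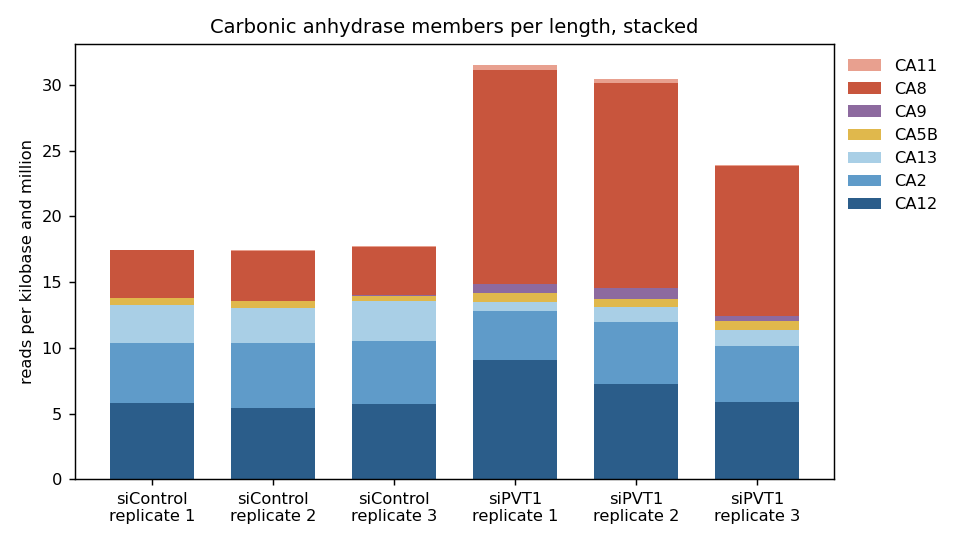
Stacked bars of the 7 carbonic anhydrase members in each library, in RPKM (vertical axis, from 0). CA8 (red) takes 50.2% of the stack on average in siPVT1 against 21.0% in siControl, while the stack of the active enzymes under it has a similar height in both groups.

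The genes with the profile most like each called member were sought among the other 19007 tested genes, by the root mean square difference over 6 libraries between log2 CPM values less their siControl mean. For SLC4A7 these were C3, FAM219A and GREM1 (0.037, 0.0394 and 0.0439). For CA8 they were NRIP1, LOX and PNRC1 (0.0483, 0.0585 and 0.0591). For CA13 they were AC073655.2, TBC1D30 and BMP6, at 0.0797 to 0.103. The nearest genes to CA9 (ST8SIA4, TLR2 and VAT1L, 0.167 to 0.219) and CA11 (DOC2B, ZNF204P and ELF3, 0.193 to 0.251) were less alike, and both members had few counts.

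The other carbonic anhydrases were not detected at a level that could be tested. CA1, CA3, CA4, CA5A, CA6, CA7, CA10 and CA14 had at most 3 counts in any library, and none of the 8 passed the filter. Of 18 further genes of the SLC4 and SLC26 transporter families 12 were tested, with a median log2 fold change of 0.78. Past both thresholds 5 were higher and 1 was lower, beside 11.8% and 9.64% of all tested genes. SLC4A8, a sodium-driven chloride-bicarbonate exchanger, rose from between 274 and 288 normalized counts in siControl to between 1103 and 1373 in siPVT1 (log2 fold change 2.12, SE 0.0997). SLC26A6, a chloride-bicarbonate exchanger, rose by 1.18 on the log2 scale, SLC4A11 by 1.16 and SLC4A5 by 1.35. The remaining higher gene, SLC4A9 (0 to 2 counts in siControl and 5 to 13 in siPVT1), and the lower one, SLC26A4 (6 to 17 and 3 to 4 counts), were named after their values were seen. SLC4A9 passed the filter through siPVT1 libraries alone and SLC26A4 through siControl libraries alone, so that each had to differ to be tested. The call of SLC26A4 was lost with DESeq2 (adjusted p = 0.0588), and without any 1 siControl library it was not tested. SLC4A2, the widespread anion exchanger, had a log2 fold change of 0.11 (95% interval -0.18 to 0.40).

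Among 13 sodium-proton exchanger genes 10 were tested, of which 2 were higher and 2 lower, beside 11.8% and 9.64% of all tested genes. Their median was 0.13. SLC9A5 rose by 1.61 and SLC9B1 by 1.58 on the log2 scale, whereas SLC9A2 had a log2 fold change of -2.0 and SLC9B2 of -1.74. SLC9B1 had at most 11 counts, and its call was lost without siControl replicate 1 or 2 or siPVT1 replicate 1 or 2 (1.19 to 1.55) and with DESeq2. None of 5 tested genes of proton-coupled lactate transport passed both thresholds. By the adjusted p alone 2 of them were higher and 2 lower, beside 57.9% of all tested genes in either direction, and the median was -0.21. Their highest value was that of SLC16A3 (MCT4), the lactate exporter of glycolytic cells, at 0.89 (SE 0.072, adjusted p = 2.39e-05, edgeR quasi-likelihood). The 2 lower genes were BSG (-0.48) and SLC16A1 (-0.38).

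Of 23 tested subunits and accessory proteins of the vacuolar proton pump, 0 were higher and 3 were lower past both thresholds, beside 11.8% and 9.64% of all tested genes. The median was -0.003. The 3 lower genes were ATP6V0C, which forms the proton-carrying ring (from between 2706 and 2743 to between 500.2 and 602 normalized counts, log2 fold change -2.27), ATP6V0D1 (-1.80) and ATP6V0A2 (-1.06). All are of the membrane sector, but that sector also held ATP6V0A4 (0.85) and ATP6V0B (-0.003). ATP6V1E2 of the cytosolic sector was just under the fold threshold (-0.97, adjusted p = 0.000307, edgeR quasi-likelihood). By the adjusted p alone 3 pump genes were higher and 8 lower, beside 57.9% of all tested genes in either direction. Without siPVT1 replicate 1 the value of ATP6V0A2 was -0.92 and missed the fold threshold. Among 8 tested proton sensors and proton channels, 3 were higher and 0 lower, with a median of 0.68. GPR4, a receptor that responds to extracellular protons, rose from 117, 119 and 125 normalized counts in siControl to 1349.5, 1194 and 1077 in siPVT1, by 3.32 on the log2 scale. The acid-sensing channel gene ASIC1 rose by 1.32 and the proton channel gene HVCN1 by 1.74 on the log2 scale. None of the 9 tested regulators of exchangers passed both thresholds. Over these 7 lists, of 67 tested genes 10 were higher and 6 lower past both thresholds, beside 11.8% and 9.64% of all tested genes, and the median was 0.17.

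**Figure D4:**
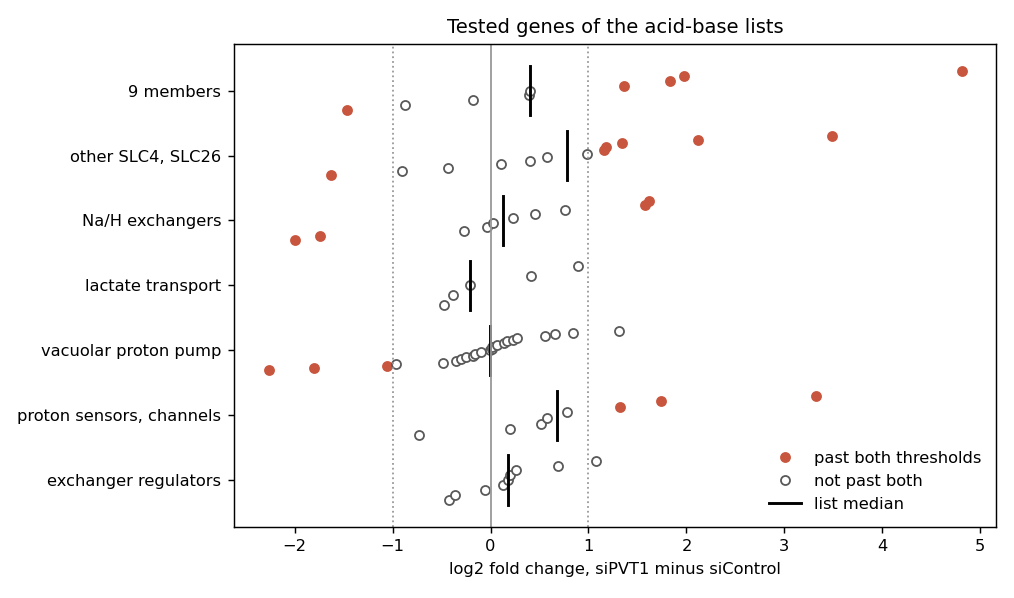
Log2 fold change, siPVT1 minus siControl (horizontal axis), of each tested gene in the members and in 6 other acid-base lists (rows), filled where past both thresholds, with a bar at each list's median and dotted lines at a change of 1 in size. Of 23 vacuolar proton pump genes 3 are filled, all lower, and of 8 sensor and channel genes 3 are filled, all higher. Past both thresholds were 11.8% of all tested genes as higher and 9.64% as lower.

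HIF genes were read beside CA9, a known HIF-1 target. HIF1A, an oxygen-regulated subunit, had a log2 fold change of 0.26 (SE 0.06). EPAS1, another such subunit, went the other way, at -0.35 (SE 0.12, adjusted p = 0.0291, edgeR quasi-likelihood). Of 8 subunits and regulators of HIF only EGLN3 was past both thresholds (1.73). By the adjusted p alone 5 of these were higher and 1, EPAS1, was lower, beside 57.9% of all tested genes in either direction. Their median was 0.36. All 8 HIF targets outside acid-base control (BNIP3, P4HA1, PDK1 and ANGPTL4 among them) were higher past both thresholds, by 1.40 to 3.89 on the log2 scale. The share of all tested genes was 11.8%, and the list was chosen with earlier results of these data known. The fitted value of CA9 has a 95% interval from 3.59 to 6.04. As CA9 had 1 count in each siControl library and had to differ to be tested, this interval does not rank it among the targets. The CA9 value depends on the prior count, and a link between CA9 and these targets was not tested.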

How the data were processed

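The authors aligned single-end mRNA reads with STAR 2.7.3a to GENCODE transcripts of GRCh38.p13 and quantified them with Salmon 0.14.1 (versions per the submitters' processing notes). They deposited a matrix of estimated counts, one row for each symbol, in whole numbers and not normalized. All 6 libraries were matched to the labels.

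The fit used edgeR 4.0.16 in R 4.3.3 (TMM scaling, quasi-likelihood test, siRNA as the only term). Tested genes reached 5 normalized counts or more in 3 or more libraries. Benjamini-Hochberg adjustment covered all of them. The SE is the size of the log2 change over the root of F. Alternatives were DESeq2 1.42.0, its size factors, total count scaling, other filters, a replicate block, a test against a 2-fold change, the adjusted p alone and each library left out. The code was tested on simulated data. Intervals of count ratios cover counting error only.

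Members and lists were chosen with earlier results of these data known. From each list other than the cell type markers, genes past both thresholds were named, or the 4 with the smallest p where there were more. SLC4A2, SLC4A9, SLC26A4, SLC16A3, SLC16A1, BSG, ATP6V0A4, ATP6V0B, ATP6V1E2, HIF1A and EPAS1 were added after their values were seen. Some genes of the lists are not reported here by name.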

Additional observations from a re-analysis of the deposited data

How the results depend on the processing

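No member changed direction in any alternative run, and CA8, CA13 and SLC4A7 stayed past both thresholds in all of them. CA11 missed them with DESeq2 (1.88 on the log2 scale), its size factors (1.82), total count scaling (1.68), the replicate block (1.71) and the test against a 2-fold change (1.83), and was not tested with edgeR's own filter. SLC4A4 passed both with total count scaling (-1.02). By the adjusted p alone SLC4A4 (-0.87), CA5B (0.40) and CA12 (0.39) were also called, for 6 members higher and 2 lower. Total count scaling gave 2 lower members. The adjusted p of CA5B exceeded 0.05 with DESeq2 (0.0726), without a filter (0.0603), with total count scaling (0.131) and with the replicate block (0.0542), and that of CA12 with total count scaling (0.17), which brought that of CA2 to 0.04 (-0.33 on the log2 scale), all from edgeR where no tool is named.

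With 1 library left out, 2 to 3 members were higher and 1 to 2 lower. CA11 was tested in 3 of these fits (1.57 to 2.27) and CA9 in 3 (4.78 to 4.84), since without any 1 siPVT1 library CA9 missed the filter. With the filter at 2 libraries, chosen after the data were seen, CA9 had values of 4.55 to 5.08 and was called in all 6. It again passed that filter through siPVT1 libraries alone and had to differ to be tested, so these calls are no check of it. SLC4A4 ranged from -1.0 to -0.75. Over all genes 3507 to 4239 were called, 1819 to 2198 higher and 1390 to 2082 lower.

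Over all genes 4081 were called, 2248 higher and 1833 lower. The test against a 2-fold change gave 1976 (1184 and 792) and the adjusted p alone 11007 (5612 and 5395). In the other acid-base lists these gave 6 and 25 genes higher, and 4 and 17 lower, against 10 and 6. Total count scaling moved the median log2 value over all genes to -0.148, and the called genes that were higher from 55.1% to 43.8%. The cause of these differences was not tested beyond the settings' own construction.

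The labels number replicates alike in both groups. Same-numbered libraries did not deviate together (correlations -0.041, 0.038 and 0.0037), and not every library correlated best with its own number. A replicate block gave 3924 called genes.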
